A study of Mus musculus with 2 samples.

Results

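The genes described here handle zinc and related metals in the cell: 4 metallothioneins (Mt1, Mt2, Mt3 and Mt4), the transcription factor Mtf1, 2 zinc exporters (Slc30a1 and Slc30a4) and 3 zinc importers (Slc39a4, Slc39a8 and Slc39a14). They were taken as a list and matched by Ensembl identifier, and all 10 were found among the 43346 mouse genes of both gene tables. The tissue was whole kidney from healthy B6NCrl mouse embryos at 16.5 days of development, with no genotype change or treatment. The samples form 1 group of 2 libraries, biological replicates 1 and 2, and each is a pool of male and female embryos. Replicate 2 was pooled from 41 embryos, and the labels used here give no number of embryos for the other pool. Total RNA over 200 nt was sequenced from 10 ng with added spike-in RNAs. With 1 group no condition could be compared and no test was run. Values are given for each library, and mean ± SD (n = 2) measures only the spread between these pools. In whole tissue, fewer cells of a type and less RNA per cell cannot be told apart.

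Metallothioneins are small proteins rich in cysteine, and the sulphur of the cysteines binds zinc and copper, as well as toxic cadmium. Mtf1 is the zinc sensor of the nucleus: when free zinc rises it binds metal response elements in promoters such as those of Mt1, Mt2 and Slc30a1. Slc30a (ZnT) proteins move zinc out of the cytosol, across the cell membrane or into vesicles, and Slc39a (ZIP) proteins move it in. The kidney tubule takes up zinc and cadmium bound to metallothionein, and renal metallothionein is best known for its role in cadmium toxicity.

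The gene tables summed to 34261328 counts on mouse genes in replicate 1 and 37900132 in replicate 2, so that 10 counts on an effective length of 2 kb correspond to 0.218 and 0.201 TPM (a level corrected for transcript length and library size). Spike-ins took 2.82% and 2.08% of all counts. All 10 kidney markers reached 1 TPM in both libraries, among them Slc34a1 of the proximal tubule at 217.51 and 239.95 TPM. Markers of other cell types were found as well. All 6 liver and yolk sac markers, 4 of 5 erythroid, 5 of 5 macrophage and 5 of 5 adrenal cortex markers reached that level. Of all protein-coding genes 62.2% reached it, and which cells made the RNA of these markers was not tested. The summed level of the adrenal markers was 81.01 TPM in replicate 1 and 127.9 TPM in replicate 2.

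The coding sequences of the metallothioneins are shown first because they carry the property that defines the proteins. Every in-frame cysteine codon (TGC or TGT) is in capitals, and the sequences run 5′ to 3′ from the start to the stop codon, as spliced from 3 exons each in GENCODE M21 on GRCm38.
Mt1: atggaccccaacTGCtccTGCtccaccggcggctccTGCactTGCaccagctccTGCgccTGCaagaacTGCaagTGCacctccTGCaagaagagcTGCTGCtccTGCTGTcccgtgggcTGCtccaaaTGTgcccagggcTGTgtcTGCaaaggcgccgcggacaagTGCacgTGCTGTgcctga
Mt2: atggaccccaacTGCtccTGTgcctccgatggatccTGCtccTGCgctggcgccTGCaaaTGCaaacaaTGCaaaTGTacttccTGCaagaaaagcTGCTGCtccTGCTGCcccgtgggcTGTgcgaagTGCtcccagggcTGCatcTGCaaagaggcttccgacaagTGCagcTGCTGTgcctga
Mt3: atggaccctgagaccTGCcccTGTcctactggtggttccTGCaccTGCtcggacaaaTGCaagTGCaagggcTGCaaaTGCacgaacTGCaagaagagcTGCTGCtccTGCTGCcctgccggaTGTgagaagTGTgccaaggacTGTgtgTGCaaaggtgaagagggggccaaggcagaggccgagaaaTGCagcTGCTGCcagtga
Mt4: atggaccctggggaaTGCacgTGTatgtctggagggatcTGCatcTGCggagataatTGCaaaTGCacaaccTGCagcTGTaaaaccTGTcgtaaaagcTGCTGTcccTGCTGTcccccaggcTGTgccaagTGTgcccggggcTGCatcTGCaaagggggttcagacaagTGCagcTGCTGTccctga
Each of the 4 sequences holds 20 cysteine codons, in 61 codons for Mt1 and Mt2, 68 for Mt3 and 62 for Mt4. Cysteine thus takes 32.8% of the codons of Mt1 and Mt2, 29.4% of those of Mt3 and 32.3% of those of Mt4. Mt1 and Mt2 were identical at 148 of 186 aligned positions (79.6%). Identity to Mt1 was 65.2% for Mt3 and 65.6% for Mt4. The longest run shared with Mt1 was 20 nt for Mt2, 27 nt for Mt3 and 11 nt for Mt4. The deposited posterior SD of the count was 0 for all 4 genes, the value of a gene that shares no counts with another.

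The 4 genes lie on the plus strand of chromosome 8 within 43.1 kb (GRCm38, chr8:94137197-94180327), in the order Mt4, Mt3, Mt2, Mt1. Relative to the start of Mt1, Mt2 starts at -6.4 kb, Mt3 at -26.5 kb and Mt4 at -41.9 kb. Promoter sequence is shown for both highly expressed genes and for Mt4, which had no counts. Each sequence gives 250 bases before the RefSeq start site and 30 bases from it, on the gene's strand (RefSeq, GRCm38.p6). Capitals mark the metal response element core, searched as TGCACNC and TGCGCNC on both strands, with overlapping matches kept.
Mt1 promoter, chr8:94178839-94179118, plus strand: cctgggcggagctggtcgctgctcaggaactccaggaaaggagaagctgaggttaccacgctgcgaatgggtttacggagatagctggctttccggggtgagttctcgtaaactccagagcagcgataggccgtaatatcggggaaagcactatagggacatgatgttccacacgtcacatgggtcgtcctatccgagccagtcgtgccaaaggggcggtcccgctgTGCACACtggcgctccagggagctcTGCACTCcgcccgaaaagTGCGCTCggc
Mt2 promoter, chr8:94172368-94172647, plus strand: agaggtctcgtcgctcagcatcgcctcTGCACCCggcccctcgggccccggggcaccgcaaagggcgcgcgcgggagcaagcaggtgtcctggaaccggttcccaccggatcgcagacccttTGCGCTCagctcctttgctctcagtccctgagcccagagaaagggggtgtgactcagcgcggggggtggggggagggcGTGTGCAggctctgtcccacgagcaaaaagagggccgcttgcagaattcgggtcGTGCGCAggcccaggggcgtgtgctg
Mt4 promoter, chr8:94136954-94137233, plus strand: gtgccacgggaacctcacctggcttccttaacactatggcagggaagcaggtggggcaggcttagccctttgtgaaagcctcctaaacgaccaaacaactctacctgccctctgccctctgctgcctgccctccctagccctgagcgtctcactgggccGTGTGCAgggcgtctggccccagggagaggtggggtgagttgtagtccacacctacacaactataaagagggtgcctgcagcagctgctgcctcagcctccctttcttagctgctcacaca
In windows of 300 bases, Mt2 held 4 matches, Mt1 held 3 and Mt4 held 1. The windows of Mt1 and Mt2 end at positions 94179138 and 94172667, before their coding sequences start at 94179311 and 94172848. Sequence between these positions was not searched, so further matches there are not counted. The RefSeq start site is an annotated position, and where transcription began in these libraries was not measured. Counted in bases from that annotated site, the Mt1 matches began at -23, 2 and 20. Those of Mt2 began at -223, -128, -50 and 4, of which the matches at -50 and 4 read on the minus strand, and that of Mt4 began at -91, also on the minus strand. Among the other members, Slc30a4 had 3 matches, Slc30a1 had 2, Mt3 had 1 and Mtf1 had none. Slc39a8 had windows at 2 start sites, with a match in 1 of them. RefSeq windows were found for 8 of the 10 members, and Slc39a4 and Slc39a14 were not matched. Of all 32851 windows of the same length, 25.7% held at least 1 match, 7.11% at least 2 and 1.97% at least 3, against 7, 4 and 3 of the 9 member windows. Among 25 windows of the Slc30a and Slc39a families, members included, 12, 4 and 2 did. The members include Mt1, Mt2 and Slc30a1, named above for such elements. A match of these letters is a description of the sequence, and binding was not measured.

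Mt1 was the most abundant of the 10 genes. Its level was 470.50 TPM in replicate 1 and 460.02 TPM in replicate 2 (465 ± 7.41 TPM, SD, n = 2), from 4764 and 5058 counts. It ranked 288 and 310 among all mouse genes, above 98.8% and 98.7% of protein-coding genes. Mt1 (ENSMUSG00000031765, chr8:94179082-94180327) encodes the broadly expressed metal-inducible isoform. Mt2 (ENSMUSG00000031762, chr8:94172664-94173568), the isoform usually induced together with Mt1, was at 124.28 and 109.27 TPM (117 ± 10.6), from 1304 and 1245 counts. The Mt1 level was 3.79 times the Mt2 level in replicate 1 and 4.21 times in replicate 2, and the values of the 2 genes did not overlap. Mt1 made up 78.8% and 80.6% of the summed metallothionein TPM. Markers of liver and yolk sac endoderm, tissues that also express Mt1 and Mt2, summed to 158.6 TPM in replicate 1 and 197.5 TPM in replicate 2, with Afp highest at 96.71 and 114.05 TPM. By TPM all 6 of these markers were higher in replicate 2, and spike-in scaling shifts the ratios of the markers and of Mt1 and Mt2 alike. The part of such RNA in the metallothionein levels was not tested, and 2 libraries of 1 group cannot show it.

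Mt3 (ENSMUSG00000031760, chr8:94152607-94154146), an isoform best known from neurons and astrocytes, was just above 1 TPM, at 2.48 and 1.37 TPM (1.93 ± 0.785), from 25 and 15 counts. The exact Poisson 95% intervals of those counts, which cover counting error only, ran from 16.2 to 36.9 and from 8.39 to 24.7, and they overlap. Mt2 was 50.1 and 79.8 times higher than Mt3. The 5 neuron markers summed to 39.55 TPM in replicate 1 and 24.24 TPM in replicate 2. Stmn2 was the highest of them at 14.06 and 9.25 TPM, none was at 0, and the part of nerve RNA in the Mt3 level was not tested. Mt4 (ENSMUSG00000031757, chr8:94137197-94139031), the isoform of stratified squamous epithelium, had 0 counts in both libraries. The exact Poisson 95% interval of a count of 0 ends at 3.69 counts. A fixed floor of 3 counts, used for the plot of levels, corresponds to 0.447 TPM in replicate 1 and 0.412 TPM in replicate 2. Of 5 stratified epithelium markers only Krt10 reached 1 TPM in both libraries (5.85 and 4.93 TPM), and the 5 summed to 7.77 and 7.69 TPM.

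**Figure D1:**
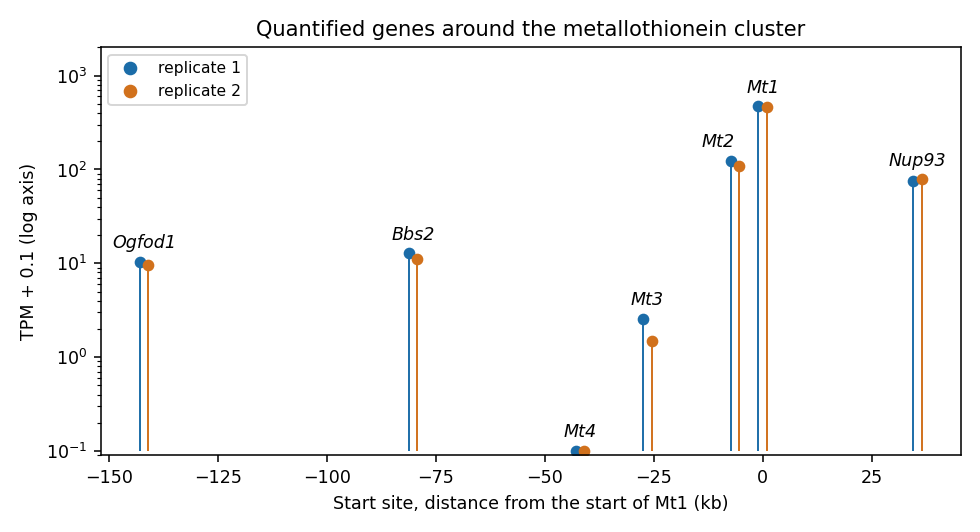
Level of the quantified genes around the metallothionein cluster, as TPM + 0.1 on a log axis, against the distance of each gene's start from that of Mt1 in kb (points side by side are replicates 1 and 2). Mt1 and Mt2 stand above 100 TPM, Mt3 is near 2 TPM and Mt4 is at 0, while the flanking Bbs2, Ogfod1 and Nup93 lie between 9.42 and 78.73 TPM.

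The plot of levels along the cluster shows the flanking genes beside the metallothioneins. Bbs2, which encodes a protein of the ciliary BBSome, was at 12.68 and 11.07 TPM upstream of Mt4. Ogfod1, a ribosomal protein hydroxylase gene, was at 10.35 and 9.42 TPM. Nup93, which encodes a nuclear pore protein and starts 35.5 kb after Mt1, was at 75.12 and 78.73 TPM. Within the cluster the order of levels ran with the order of the genes, lowest at Mt4 and highest at Mt1. An antisense gene annotated in M21, Gm45774, overlaps Mt2 by 749 bases and was not among the quantified genes. Whether the counting used strand is not stated in the labels or file notes, so reads from it could have been counted for Mt2.

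Mtf1 (ENSMUSG00000028890, chr4:124802104-124849800) was at 10.94 and 11.72 TPM (11.3 ± 0.552). Most of that level came from a short non-coding model. Mtf1-204, a transcript of 781 nt annotated as retained intron, took 77.4% and 79.7% of the gene's TPM. It accounted for only 27.9% and 30.5% of the gene's expected counts, since a short transcript needs few counts for a high level. The 4 protein-coding transcripts together had 2.48 and 2.38 TPM (2.43 ± 0.0707). Mtf1-201, the longest coding transcript with 7631 nt, held most of the counts, with 281.4 and 307.6, and a level of 1.63 and 1.64 TPM. Of the 781 nt of Mtf1-204, 263 lie outside the exons of the coding transcripts. The gene 1110065P20Rik overlaps Mtf1 by 721 bases on the opposite strand and was at 34.05 and 36.75 TPM. Whether the counting used strand is not stated in the labels or file notes, so reads there cannot be assigned to either gene with certainty.

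The exporters were low. Slc30a4 (ENSMUSG00000005802, chr2:122681233-122702663, minus strand), which loads zinc into vesicles and is disrupted in the lethal milk mouse, was at 5.23 and 5.17 TPM (5.20 ± 0.0424). Slc30a1 (ENSMUSG00000037434, chr1:191906767-191913247), the main zinc exporter of the cell membrane, was at 1.63 and 1.38 TPM (1.51 ± 0.177), from 192.51 and 176.77 counts. Slc30a4 exceeded Slc30a1 in both libraries with no overlap. The 2 exporters summed to 6.86 and 6.55 TPM. Each is overlapped on the opposite strand by a non-coding gene of under 1 TPM, 1700034H15Rik at Slc30a1 (0.35 and 0.21 TPM) and 4930417H01Rik at Slc30a4 (0.18 and 0.00 TPM).

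The importers spread over a wider range. Slc39a8 (ENSMUSG00000053897, chr3:135825279-135888572), the ZIP8 protein that carries zinc, manganese and cadmium, was the highest transporter of the list at 15.00 and 16.36 TPM (15.7 ± 0.962). Slc39a14 (ENSMUSG00000022094, chr14:70303469-70351425, minus strand), its close relative ZIP14 that also carries iron and manganese, was at 8.28 and 5.61 TPM (6.95 ± 1.89). Slc39a4 (ENSMUSG00000063354, chr15:76612383-76617384, minus strand), the intestinal zinc importer mutated in acrodermatitis enteropathica, was at 0.39 and 0.57 TPM (0.480 ± 0.127), from 19 and 30 counts. Of 5 gut epithelium markers 2 reached 1 TPM in both libraries, Lgals4 and Vil1, and Vil1 is also a gene of the proximal tubule. The gut regulator Cdx2 had 0 counts in both libraries. A non-coding gene annotated in M21, 4933401H06Rik, overlaps Slc39a8 by 6569 bases on the opposite strand and was not among the quantified genes. The 3 importers summed to 23.67 and 22.54 TPM, 3.45 and 3.44 times the sum of the exporters. On the scale of log2(mean TPM + 0.1) averaged over genes, the importers exceeded the exporters by 0.46, a mean that Slc39a4 lowers. With only protein-coding transcripts counted, an alternative chosen after seeing the data, that difference was -0.06. The sign thus changed. The SD of 0.0907 between the libraries for the main difference measures the spread between pools only, not that between genes. With so few genes, neither group was shown to be higher on that count.

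**Figure D2:**
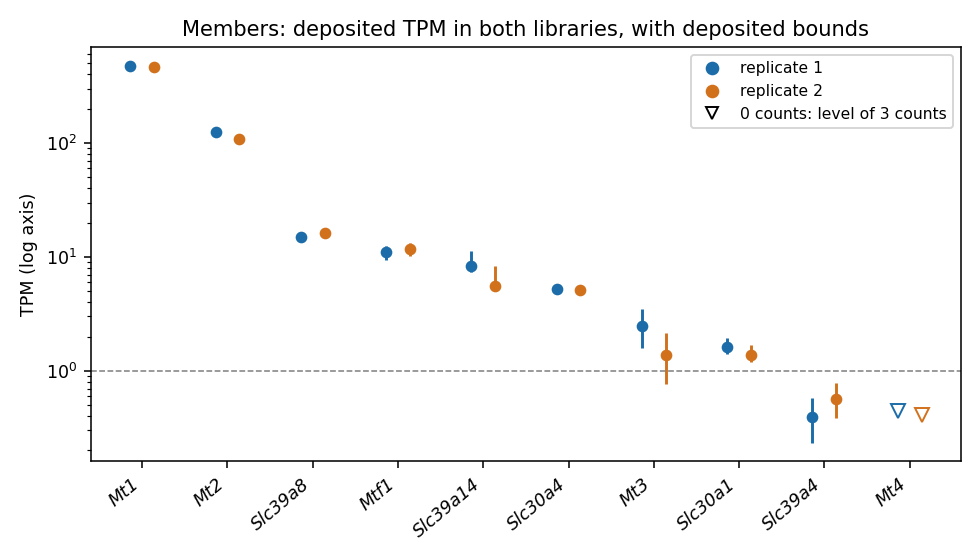
Deposited TPM of the 10 genes in replicates 1 and 2 on a log axis, in order of mean level, with vertical lines for the deposited lower and upper bounds and a dashed line at 1 TPM. Open triangles mark the level of 3 counts for Mt4, which had 0 counts, and Mt1 is the highest at 470.50 and 460.02 TPM.

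The order of mean levels was Mt1, Mt2, Slc39a8, Mtf1, Slc39a14, Slc30a4, Mt3, Slc30a1, Slc39a4 and Mt4. Between the libraries only the neighbours Mt3 and Slc30a1 overlapped, as the plot of the 10 genes shows. By the deposited bounds, Mtf1 and Slc39a14 could also not be separated in replicate 1, nor Slc39a14 and Slc30a4 in replicate 2, nor Slc39a4 and Mt4 in either. Counting protein-coding transcripts alone, the third to sixth places were Slc39a8 at 14.4, Slc30a4 at 5.21, Slc39a14 at 2.51 and Mtf1 at 2.43 TPM. Of the 10 genes 8 reached 1 TPM in both libraries, all but Mt4 and Slc39a4. Of all mouse genes 34.7% did, and of protein-coding genes 62.2%. Mt1 and Mt2 together were at 594.8 and 569.3 TPM, 19.5 and 19.6 times the 5 transporters. As a mean of log2(mean TPM + 0.1) over genes, the 4 metallothioneins exceeded the 5 transporters by 1.54, a value that Mt4 at 0 lowers.

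Coding and retained-intron transcript models shared the level of several members. Of the 5 members with at least 2 transcripts and 1 TPM in both libraries, a retained-intron model led by TPM in Mtf1 and Slc39a14. Among 9743 protein-coding genes with at least 2 transcripts and 1 TPM in both libraries the share was 2.72%. These genes include any without an annotated retained-intron model, in which none could lead. For this reason, and with only 5 members, the shares are not a like comparison. By expected counts the share was 1.43%, and among the members only Slc39a14 then kept a retained-intron leader. Slc39a14 has 13 transcripts, and its 5 retained-intron models took 66.2% and 60.4% of TPM and 71.2% and 69.0% of counts. By TPM Slc39a14-211 led with 3.12 and 2.36 TPM. By counts Slc39a14-208 led with 114.6 and 106, and 4346 of its 5117 nt lie outside the exons of coding transcripts. The coding transcripts of Slc39a14 had 2.80 and 2.22 TPM, and the retained-intron models 5.48 and 3.39 TPM. Most of the gap between 8.28 and 5.61 TPM in the gene's total thus lay in the retained-intron models. Part of that gap rested on very few counts. Slc39a14-205 had 0.73 and 0.00 TPM from 5.6 and 0.0 counts, and Slc39a14-207 had 0.64 and 0.18 TPM from 3.9 and 1.2 counts. The deposited bounds of each overlapped between the libraries. Slc39a14-208, the leader by counts, was at 0.99 and 0.85 TPM.

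**Figure D3:**
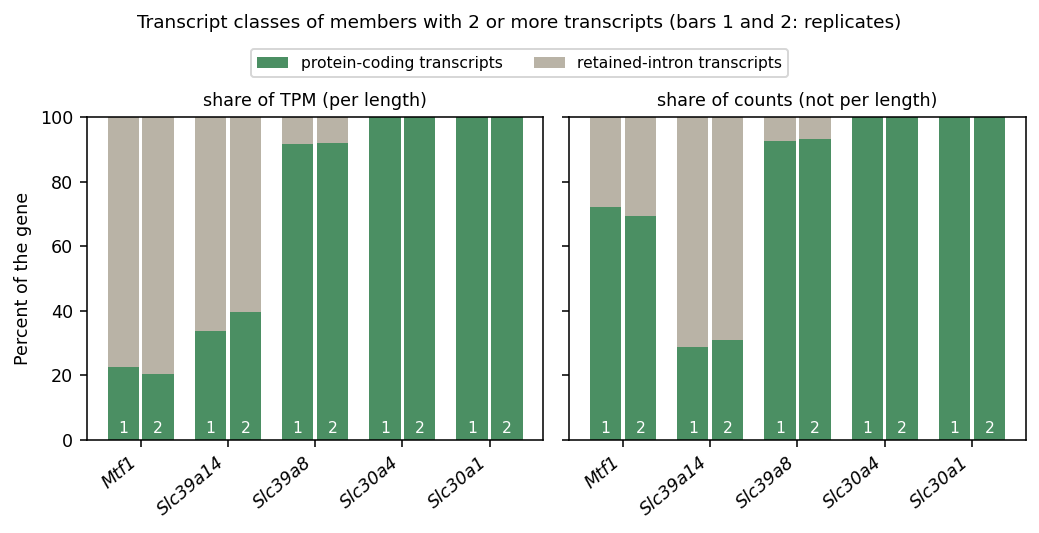
Percent of each gene's TPM (left) and expected counts (right) in protein-coding and retained-intron transcripts, for the 5 members with at least 2 transcripts, with 1 bar per replicate. Mtf1 is mostly retained intron by TPM (77.4% and 79.7%) but mostly coding by counts (72.1% and 69.5%), and Slc39a14 is mostly retained intron on both scales.

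The shares in the plot of transcript classes were alike in both libraries. None of the 5 members changed its leading transcript, against 8.29% of the 9743 genes, which for so few members does not set them apart. Slc39a8 was mostly coding. Slc39a8-206 held 57.4% and 66.9% of its TPM and Slc39a8-205 held 21.4% and 13.2%, so these led in the same order in both libraries while the split moved. The next 3 lay close together and changed order: Slc39a8-202 had 6.8% and 4.1%, the retained-intron model Slc39a8-204 had 6.7% and 7.6%, and Slc39a8-201 had 6.2% and 7.7%. The 4 coding models start at 4 different positions. Slc30a1-201 held 100% of Slc30a1, and Slc30a4-201 held 100% and 98.5% of Slc30a4.

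Several other genes of both transporter families were higher than the members. Of the 10 Slc30a genes 7 reached 1 TPM in both libraries, and of the 14 Slc39a genes 11 did, beside 62.2% of all protein-coding genes. Counts this small do not set the families apart. Slc39a7, which releases zinc from the endoplasmic reticulum, was the highest at 190.62 and 198.43 TPM. Slc39a1, a cell membrane importer, was at 93.37 and 90.45 TPM, and Slc39a5, a basolateral zinc carrier of epithelia, at 48.57 and 57.18 TPM. Slc39a12, known from brain, had 0 counts. Among the exporters Slc30a9, a mitochondrial zinc transporter, was at 48.33 and 49.96 TPM. Slc30a5 and Slc30a6, which pair to supply zinc to enzymes of the secretory pathway, were at 40.54 and 42.83 TPM and at 31.44 and 35.25 TPM. Slc30a8, the islet transporter, had 0 counts. The member importers made up 4.40% and 4.18% of the summed Slc39a TPM, and the member exporters 4.92% and 4.46% of the summed Slc30a TPM. The whole Slc39a family summed to 538.3 and 539.1 TPM, 3.86 and 3.67 times the Slc30a family, and Mt1 plus Mt2 came to 0.878 and 0.830 times both families together.

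**Figure D4:**
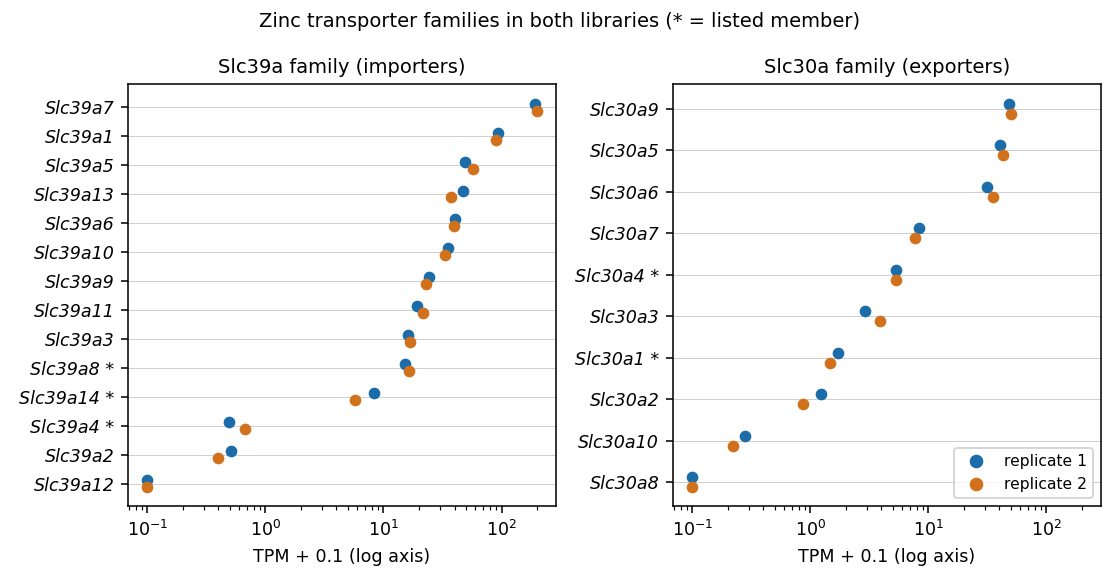
All 14 Slc39a and 10 Slc30a genes in replicates 1 and 2, as TPM + 0.1 on a log axis in order of mean level, with listed members starred. The listed importers occupy low places (Slc39a8 at 15.00 and 16.36 TPM is the highest of them), and Slc39a7 is the highest gene of either family.

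A list of 9 zinc-responsive genes and zinc-binding partners includes Mt1, Mt2 and Slc30a1 of the members and Slc39a10 of the Slc39a family. Of the 9, 8 reached 1 TPM in both libraries, beside 62.2% of all protein-coding genes. Beside Mt1 and Mt2 the highest was Trpm7, a channel kinase that passes zinc and magnesium, at 40.66 and 37.04 TPM. The lowest was Tmem163, a zinc-binding membrane protein, at 1.36 and 0.82 TPM.

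The ratios of the members between the libraries are given beside those of all genes. Ratios were taken of TMM-scaled counts on the whole table, and intervals are exact and cover counting error only. Of the 10 genes 7 passed a mean of 1 CPM, and Mt3, Mt4 and Slc39a4 did not. None of the 7 passed 2-fold, against 2.32% of 15363 genes, and none passed 1.5-fold, against 5.81%. With general shares this low, 0 of 7 does not set the members apart from other genes. Slc39a14 had the largest ratio of the 7, with log2 -0.31 (interval -0.56 to -0.07) in replicate 2 over replicate 1. On the TPM scale its ratio was -0.55, and the deposited effective length of the gene was 1605 nt in replicate 1 and 1903 nt in replicate 2. Slc30a1 followed at -0.24 (interval -0.55 to 0.06) and Mt2 at -0.19 (interval -0.30 to -0.07). Mt1 was at -0.03 (interval -0.09 to 0.02), Slc39a8 at 0.11, Mtf1 at 0.02 and Slc30a4 at -0.03. Spike-in scaling raised the ratio of all genes by 0.42, and under it Mt1, Mt2, Slc30a1, Slc30a4 and Slc39a14 had the opposite sign. Mt3 at -0.77 (interval -1.88 to 0.12) and Slc39a4 at 0.50 (interval -0.34 to 1.45) were not resolved at this depth.

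**Figure D5:**
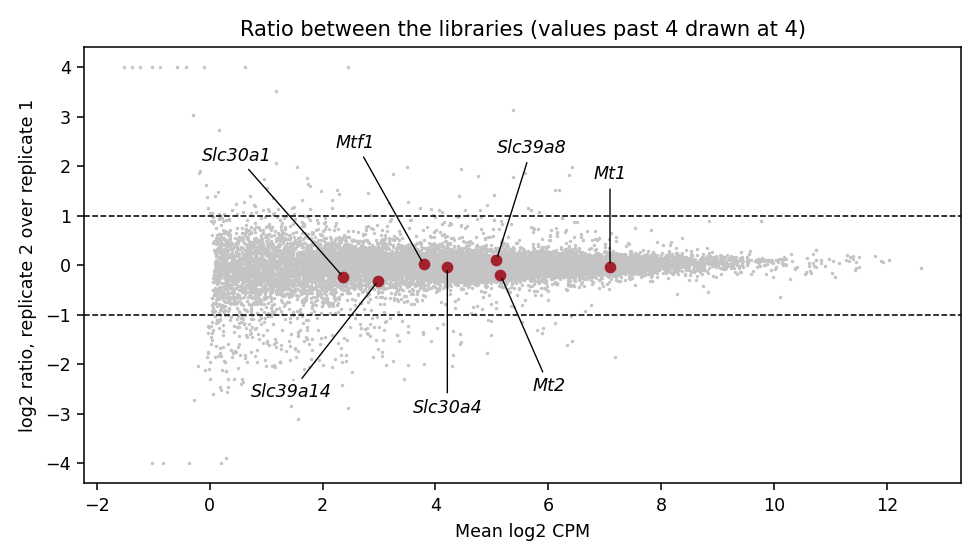
Log2 ratio of replicate 2 over replicate 1 against mean log2 CPM for 15363 genes (grey) and the 7 members that passed 1 CPM (red), with dashed lines at 2-fold. The members lie between -0.31 (Slc39a14) and 0.11 (Slc39a8).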

How the data were processed

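Total RNA-seq of 2 libraries of embryonic kidney was analysed from the gene and transcript tables that the authors deposited. The members and gene lists were chosen with earlier results of these data known. Assembly mm10 and annotation M4 are named in the deposited text notes. For the aligner, the quantifier and the strandedness: not given in the sources used here. The deposited expected counts are estimated counts that need not be whole. The authors scaled TPM for transcript length and to a fixed sum per library that includes the spike-ins. The authors scaled FPKM for length and library size. The deposited percent gives each transcript's share of its gene. The deposited TPM bounds, read as a signal that is never negative, and the posterior SD of the count come from the same estimates.

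Names, types and coordinates came from GENCODE M21 on GRCm38 by identifier, and 884 of 43346 mouse genes had no entry there. Mouse genes alone entered library sizes; the other 26345 entries, spike-ins included, did not. Detection means 1 TPM in both libraries. Expected counts were rounded and scaled by TMM in edgeR 4.0.16 (R 4.3.3) with a prior count of 2; genes of a mean of at least 1 CPM entered. Levels were averaged as log2(mean TPM + 0.1), which understates differences of low genes. The code for ratios was tested on simulated data. Python 3.11.15 was used with pandas 2.3.3, scipy 1.17.1, numpy 2.4.6 and, for figures, matplotlib 3.10.9. PCR reads without molecular identifiers are not independent molecules, so intervals cover counting error only.

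Named genes are all members and, of each further list, the up to 3 highest and the lowest by mean TPM, the genes near the metallothioneins, and the leading transcripts; further transcripts, markers and overlapping genes were named after their values were seen. Alternatives covered the unit, pseudocount, detection threshold, scaling (DESeq2 1.42.0 size factors, library size, spike-ins), filters, and leaving out each library.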

Additional observations from a re-analysis of the deposited data

How the results depend on the processing

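No paired analysis was possible because the 2 libraries form 1 group. The importer level minus the exporter level was 0.46 on the log2 scale. It was 0.56 with a pseudocount of 1, 1.27 by the median, 1.78 by summed TPM, 1.72 over both whole families and 1.85 over genes of at least 1 TPM, and it ran from 0.38 to 0.51 without either replicate. With protein-coding transcripts only, chosen after seeing the data, it was -0.06. The alternative drops the retained-intron models of Slc39a14. The metallothionein level minus the transporter level was 1.54. It was 2.01 and 0.77 with pseudocounts of 1 and 0.01, 1.80 from posterior means, 4.29 by summed TPM, 3.11 over genes of at least 1 TPM and 1.85 with protein-coding transcripts only, and ran from 1.43 to 1.64 without either replicate. The cause of these shifts was not tested, except that a gene at 0, Mt4, takes its value from the pseudocount. The number of members detected was 8, and 6 at 2 TPM or by FPKM. Of both families 17 to 19 genes were detected, and 0 members passed 2-fold under the 6 alternatives. Of 149 alternative values, 116 kept within the spread or count limit, 32 moved and 1 changed direction. Depth limits Mt3, Slc39a4 and Mt4, which had at most 30 counts.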

Other observations

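Genes of other metals were read beside those of zinc. For the counts of detected genes below, 62.2% of all protein-coding genes reached 1 TPM in both libraries. Of 8 copper genes 7 reached 1 TPM in both libraries, led by the copper chaperone Atox1 at 307.57 and 341.24 TPM, Commd1 at 303.98 and 323.08 TPM and the mitochondrial copper chaperone Cox17 at 121.76 and 123.50 TPM. The copper pump Atp7b, known from liver, was the lowest at 0.54 and 0.61 TPM. By TPM all 8 copper genes were higher in replicate 2, but by TMM-scaled counts Cox17 had a log2 ratio of -0.07 and Atp7a of 0.01. None of the 8 passed 2-fold by counts, and the median log2 ratio of the 8 was 0.08 against 0.01 over all genes. Of 8 iron and manganese genes 7 reached 1 TPM, led by the ferritin chains Ftl1 at 4218.36 and 4734.01 TPM and Fth1 at 1439.84 and 1476.34 TPM. The iron exporter Slc40a1 was at 92.84 and 93.13 TPM, and the manganese exporter Slc30a10 was the lowest at 0.18 and 0.12 TPM. Erythroid cells also make ferritin, and Hbb-bs, an erythroid marker, was at 5052.45 and 4881.87 TPM; their part in the ferritin levels was not tested.

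Metallothioneins also respond to glucocorticoids, and whether they did so in these embryos was not tested. Of 6 glucocorticoid response genes 5 reached 1 TPM, led by Tsc22d3 at 90.34 and 103.05 TPM, Sgk1 at 76.08 and 88.01 TPM and the receptor gene Nr3c1 at 37.17 and 34.25 TPM. Zbtb16 was the lowest at 0.70 and 0.85 TPM. The share of all protein-coding genes at 1 TPM in both libraries was 62.2%.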
